A study of Mus musculus with 16 samples.

Results

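Transcript levels of 10 genes that mark the sinusoidal endothelium of the liver were examined in whole liver RNA sequencing of mice breathing different oxygen patterns. The 10 genes were taken as a named list of scavenger receptors, lectins and secreted products, out of 55487 genes in the deposited table, and all 10 were among the 14553 genes with enough counts to be tested. The mice were wild type C57BL/6J at an age of 12 weeks, in 4 groups of 4 libraries each. The groups were sustained hypoxia, intermittent hypoxia, overlap hypoxia, in which both patterns are combined per the series title, and room air. Not given in the sources used here were the oxygen levels, cycle lengths, duration of exposure and sex of the animals. The labels do not say that the 4 libraries of a group came from separate animals, so the p-values reflect spread between libraries that may be technical.

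Sinusoidal endothelial cells line the blood channels of the liver with a perforated wall, and they are among the most active scavenger cells of the body. Their endocytic receptors take up hyaluronan, collagen fragments, oxidised lipoproteins, immune complexes and glycoproteins with exposed mannose from the blood. The same cells release clotting factor VIII. When these cells lose their specialised state, genes of this kind are known to decline while markers of ordinary capillaries come up.

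Library totals lay between 10940275 counts in overlap hypoxia replicate 3 and 64789635 counts in sustained hypoxia replicate 2. Ribosomal RNA took 2.16% ± 0.698 of counts in sustained hypoxia, 25.2% ± 6.996 in intermittent hypoxia and 9.59% ± 5.82 in the overlap group, against 5.22% ± 3.71 in room air (mean ± SD, n = 4 each), and mitochondrially encoded genes moved with it (1.58% ± 0.121 in sustained hypoxia, 8.44% ± 2.31 in intermittent hypoxia and 4.37% ± 2.17 in the overlap group, against 2.11% ± 0.680 in room air). The labels call the tissue liver but the extraction text speaks of retina, so markers were checked. Alb, the serum albumin gene of hepatocytes, stood between 36132 and 60643 CPM (read counts relative to library size, with TMM factors), and the endothelial junction gene Cdh5 stood between 1.67 and 6.68 CPM. Rcvrn, made by photoreceptors, was at 0 counts in all 16 libraries, whereas Gnat1, rod transducin, stood between 2.80 and 10.6 CPM and made up most of a summed level of 2.97 to 10.8 CPM over 6 such genes.

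The genes lie apart in the mouse genome, and where 3 share chromosome 10 and 2 share chromosome 14 they are not neighbours. In GRCm38 coordinates with the GENCODE M21 annotation, Stab1 (ENSMUSG00000042286) spans chr14:31139013-31168641 and Stab2 (ENSMUSG00000035459) spans chr10:86841198-87008025, both on the minus strand. Clec4g (ENSMUSG00000074491) spans chr8:3707064-3720651 and Mrc1 (ENSMUSG00000026712) spans chr2:14229392-14332057, and Mrc1 is the only member on the plus strand. Oit3 (ENSMUSG00000009654) spans chr10:59422958-59441778, Fcgr2b (ENSMUSG00000026656) chr1:170958617-170976547 and Lyve1 (ENSMUSG00000030787) chr7:110850607-110863239. Gpr182 (ENSMUSG00000058396) spans chr10:127747276-127751732, Dnase1l3 (ENSMUSG00000025279) chr14:7964533-7994573 and F8 (ENSMUSG00000031196) chrX:75172715-75382615. Values are counts over all exons of a gene. Of the 50-base words of Fcgr2b, 6.95% also occur in transcripts of other genes, and for the other members the share was at most 1.96%. At most 5.9% of a member's exonic length, in Clec4g, lies across from exons of a gene on the other strand, and counts there cannot be assigned to either strand because no strand setting is stated.

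RefSeq start sites were matched for 6 of the 10 genes. The 250 bases before the start site are shown for the pair of stabilin genes, which were highest in intermittent hypoxia, and for Clec4g and Mrc1, which were highest in room air (RefSeq, GRCm38.p6, gene strand, 5′ to 3′). Capitals mark AGGAA and its reverse complement TTCCT, letters that include the core bound by ETS factors such as Erg.
Stab1, chr14:31168642-31168891, minus strand: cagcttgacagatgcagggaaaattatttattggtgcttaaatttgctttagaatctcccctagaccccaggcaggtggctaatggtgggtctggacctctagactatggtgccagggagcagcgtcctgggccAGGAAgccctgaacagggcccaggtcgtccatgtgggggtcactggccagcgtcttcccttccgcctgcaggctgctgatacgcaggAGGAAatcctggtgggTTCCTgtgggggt
Stab2, chr10:87007943-87008192, minus strand: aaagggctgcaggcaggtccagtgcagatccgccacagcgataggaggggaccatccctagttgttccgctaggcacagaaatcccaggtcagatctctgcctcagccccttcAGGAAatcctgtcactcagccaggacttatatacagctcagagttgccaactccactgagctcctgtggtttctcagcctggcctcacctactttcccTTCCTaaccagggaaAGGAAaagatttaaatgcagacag
Clec4g, chr8:3720652-3720901, minus strand: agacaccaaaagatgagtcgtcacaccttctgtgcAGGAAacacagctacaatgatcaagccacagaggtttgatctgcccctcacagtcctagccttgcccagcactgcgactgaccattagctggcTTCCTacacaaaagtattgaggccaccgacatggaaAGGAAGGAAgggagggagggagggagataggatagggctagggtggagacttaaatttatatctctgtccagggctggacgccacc
Mrc1, chr2:14229164-14229413, plus strand: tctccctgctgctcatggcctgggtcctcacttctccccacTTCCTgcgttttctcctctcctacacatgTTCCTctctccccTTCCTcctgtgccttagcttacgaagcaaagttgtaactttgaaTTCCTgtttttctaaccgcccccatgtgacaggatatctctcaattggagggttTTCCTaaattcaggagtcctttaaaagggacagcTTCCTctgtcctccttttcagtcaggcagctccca

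The letters AGGAA were found, on either strand, at 3 places before Stab1, 3 before Stab2, 4 before Clec4g, of which a pair overlap by a base, 6 before Mrc1, 1 before Fcgr2b and 0 before F8. They were present in 60.3% of the 32851 promoter windows of the same length, and they were searched after the first 3 motifs had been read. Those were AGATAA, letters bound by GATA factors and present in 9.99% of all windows, and ACGTG and GCGTG, the cores bound by the hypoxia-inducible factors and present in 16.6% and 28.2%. None of the 3 was found on either strand of the 6 windows. The searched motifs share no overlapping place in these windows.

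Per kilobase of exon, Clec4g was the most abundant member. In room air it stood at 17.3 ± 1.70 CPM per kilobase, followed by Oit3 at 4.84 ± 0.322, Mrc1 at 3.58 ± 0.165 and Fcgr2b at 3.48 ± 0.499 CPM per kilobase (mean ± SD, n = 4). Stab1 stood at 1.21 ± 0.120 and Stab2 at 0.803 ± 0.191 CPM per kilobase, and the lowest were Lyve1 at 0.623 ± 0.119 and F8 at 0.467 ± 0.0574. Across the groups, the highest mean CPM of a gene was in intermittent hypoxia for 6 members (Stab1, Stab2, Fcgr2b, Gpr182, Dnase1l3 and F8) and in room air for the other 4. The lowest mean was in overlap hypoxia for 7 members and in sustained hypoxia for Stab1, Stab2 and Lyve1.

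**Figure D1:**
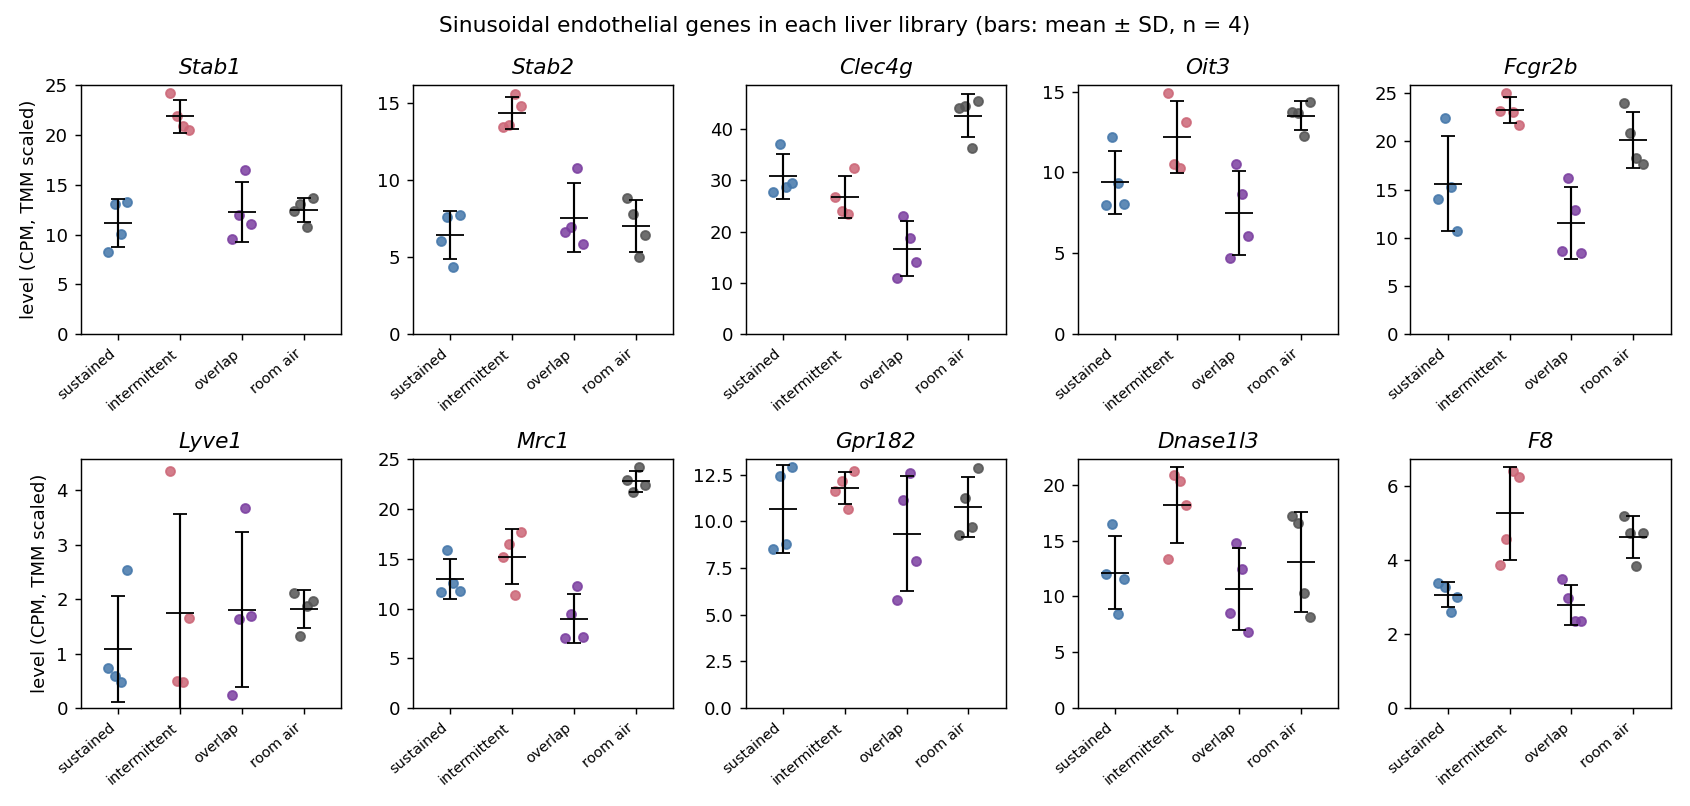
Level of each of the 10 genes in every library, in CPM with TMM scaling on a linear axis from 0, for sustained, intermittent and overlap hypoxia and room air. Points are the 4 libraries of a group and bars the mean ± SD, cut at 0 for Lyve1. The intermittent points of Stab1 and Stab2 lie above all others, and the 4 room air points of Mrc1, between 21.7 and 24.2 CPM, lie above those of all 3 exposures.

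Against room air the 10 genes did not move as a block, and the 3 exposures gave different pictures. In intermittent hypoxia 2 members rose (Stab1 and Stab2), 2 fell (Clec4g and Mrc1) and 6 were not called. That is 4 of 10 beside 37.1% of all genes tested, with 18.9% of genes called higher and 18.3% called lower, so the members were called about as often as genes in general. In overlap hypoxia 5 members fell (Clec4g, Mrc1, Oit3, Fcgr2b and F8) and none rose, beside 6.29% of all genes called and 2.89% called lower. In sustained hypoxia edgeR called 0 members beside 0.0481% of all genes. There, all 10 fitted changes were below 0, and 4 members had an unadjusted p under 0.05, beside 11.5% of all genes. DESeq2 and limma-voom each called 1 member, Mrc1, beside 1.57% and 1.7% of genes that had an adjusted p in each tool. Called means a Benjamini-Hochberg adjusted p under 0.05 over all 14553 genes in edgeR's quasi-likelihood test. The 3 comparisons share the 4 room air libraries. In RNA from whole liver, fewer endothelial cells and less of a transcript per cell cannot be told apart.

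**Figure D2:**
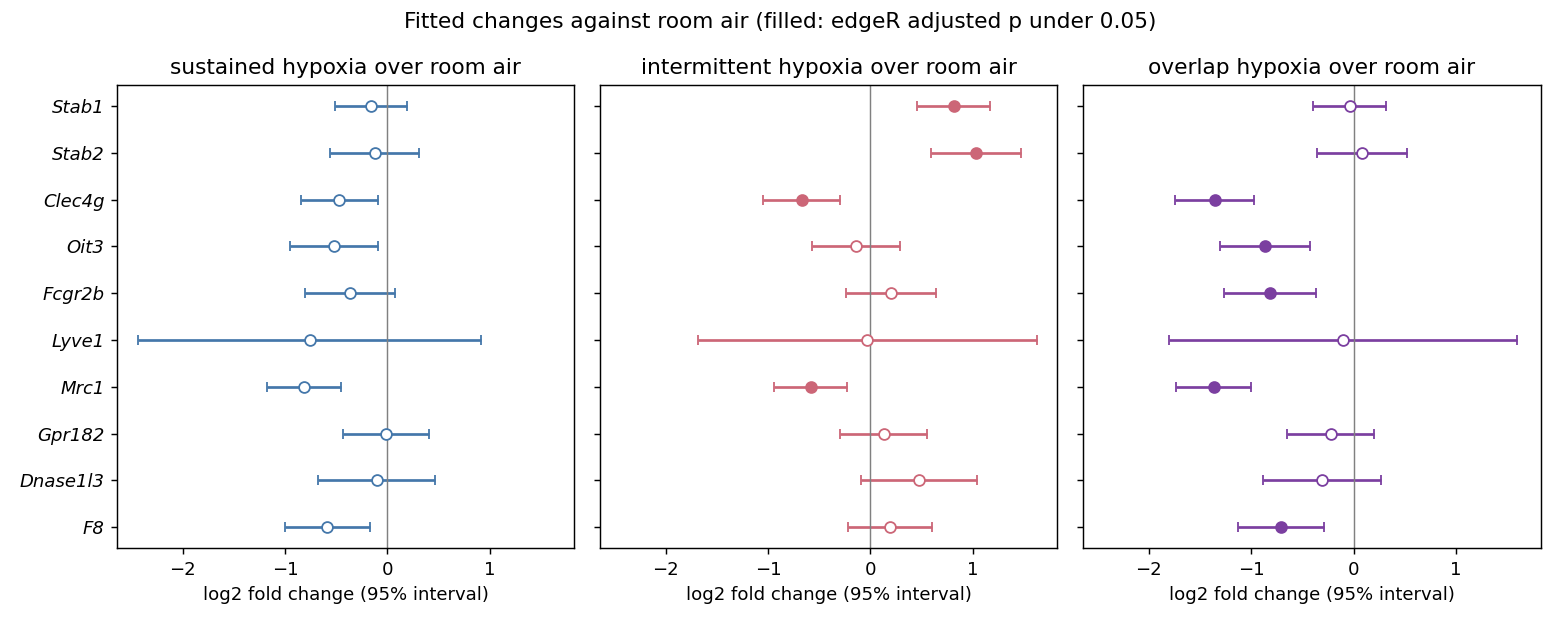
Fitted log2 fold change of each gene in sustained, intermittent and overlap hypoxia over room air, with 95% intervals. Filled points passed an edgeR adjusted p of 0.05: 0 members in sustained hypoxia, 4 in intermittent hypoxia and 5 in overlap hypoxia.

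The median log2 fold change of the 10 members against room air was −0.42 in sustained hypoxia, 0.16 in intermittent hypoxia and −0.51 in overlap hypoxia, where the median of all genes tested was −0.01, 0.03 and 0.03. Members whose 4 exposed libraries all lay below the 4 room air libraries numbered 3 in sustained hypoxia (Oit3, Mrc1 and F8; 4.32% of all genes), 2 in intermittent (18.0%) and 5 in overlap hypoxia (7.14%). Members lying wholly above room air were the 2 stabilin genes in intermittent hypoxia (17.4% of all genes).

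The stabilins are large endocytic receptors. Stab2 is the main clearance receptor for hyaluronan in the sinusoid, and Stab1 takes up oxidised lipoproteins and SPARC. Stab1 stood at 8.24, 13.1, 10.04 and 13.3 CPM in sustained, 24.2, 21.9, 20.9 and 20.5 in intermittent and 9.58, 11.9, 16.5 and 11.1 in overlap hypoxia, against 12.3, 13.1, 10.8 and 13.6 CPM in room air. Every intermittent library lay above all 12 others, and the other 3 groups overlapped each other. Stab1 rose by a log2 fold change of 0.81 in intermittent hypoxia over room air (SE 0.17, edgeR adjusted p = 0.000996), a 1.75-fold level. The change was −0.16 (95% interval −0.51 to 0.19) in sustained and −0.04 (−0.39 to 0.32) in overlap hypoxia.

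Stab2 stood at 6.07, 7.60, 4.37 and 7.72 CPM in sustained, 13.5, 13.6, 15.6 and 14.8 in intermittent and 6.66, 6.98, 10.8 and 5.85 in overlap hypoxia, against 8.84, 7.83, 5.01 and 6.43 CPM in room air. Again the intermittent libraries lay above all 12 others while the remaining groups overlapped. Stab2 rose by a log2 fold change of 1.03 in intermittent hypoxia over room air (SE 0.21, edgeR adjusted p = 0.000786), a 2.05-fold level, and was not called in sustained (−0.12, interval −0.56 to 0.31) or overlap hypoxia (0.08, interval −0.36 to 0.53). Both stabilin calls in intermittent hypoxia held in 16 of 16 fits that left out a library each.

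With a term for the length and GC content of transcripts in each library, the log2 change of Stab1 in intermittent hypoxia over room air was 0.07 and its call was lost, while that of Stab2 was 0.59 and kept its call. With the ribosomal RNA share of each library as a covariate, Stab1 stood at 0.96 and Stab2 at 0.97. Neither was called, in a fit that called 77 genes in all. Every intermittent library had a higher ribosomal share (at least 18.5%) than any library of another group (at most 16.8%, in overlap hypoxia). In comparisons with intermittent hypoxia, here and below, a call lost with this covariate therefore cannot tell the exposure from the ribosomal share.

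Clec4g, also known as LSECtin, is a C-type lectin of the sinusoidal surface that binds glycans on proteins and viruses. It stood at 27.7, 37.1, 28.7 and 29.5 CPM in sustained, 26.8, 24.1, 23.5 and 32.4 in intermittent and 10.9, 23.0, 18.8 and 14.1 in overlap hypoxia, against 44.0, 44.6, 36.4 and 45.4 CPM in room air. The order of the means was room air, sustained, intermittent and overlap, and sustained hypoxia overlapped both its neighbours in that order, while the overlap libraries lay below those of every other group. Clec4g fell in overlap hypoxia over room air by a log2 fold change of −1.36 (SE 0.18, edgeR adjusted p = 0.000898), to 0.390 of the room air level, and in intermittent hypoxia by −0.67 (SE 0.18, edgeR adjusted p = 0.00627). In sustained hypoxia the change was −0.47 (interval −0.84 to −0.09, edgeR adjusted p = 0.321). Both calls held in 16 of 16 fits that left out a library. In intermittent hypoxia the change was −0.27 with the length and GC term and −0.03 with the ribosomal covariate, and the call was lost in both. In overlap hypoxia it was −1.16 and −1.24, and the call was kept.

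Mrc1, the mannose receptor, clears glycoproteins and collagen fragments and is made by sinusoidal endothelium and by macrophages. It stood at 11.7, 15.9, 12.5 and 11.7 CPM in sustained, 15.2, 16.5, 11.4 and 17.7 in intermittent and 7.06, 9.47, 12.2 and 7.12 in overlap hypoxia, against 22.9, 21.7, 24.2 and 22.4 CPM in room air. All 12 exposed libraries lay below the 4 room air libraries, and the exposed groups overlapped each other. Mrc1 fell by a log2 fold change of −1.37 in overlap hypoxia (SE 0.18, edgeR adjusted p = 0.000898) and −0.58 in intermittent hypoxia (SE 0.17, edgeR adjusted p = 0.0114). In sustained hypoxia the change was −0.81 (SE 0.17), with an edgeR adjusted p = 0.0822. That was the member nearest the threshold there, and it was called by DESeq2, by limma-voom, with no filter on counts, with only the compared groups fitted, and without overlap hypoxia replicate 2. The sustained change, which missed the threshold, was larger than the intermittent change, which passed it, and the direct comparison of intermittent with sustained hypoxia gave 0.23 (interval −0.13 to 0.59), not called. The overlap call was kept with the length and GC term (−1.40) and with the ribosomal covariate (−1.25). The intermittent call was kept with the length and GC term (−0.68) and lost with the ribosomal covariate (−0.03).

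Markers of Kupffer cells, the resident macrophages of the sinusoid, were read beside Mrc1. Their summed level over 12 genes was 89.0 to 164.1 CPM in sustained hypoxia, 54.5 to 103.5 in intermittent hypoxia and 55.6 to 68.1 in overlap hypoxia, against 126.7 to 231.7 CPM in room air, and no marker was at 0 counts throughout a group. None of the 12 was called in sustained hypoxia (median log2 −0.66), 9 fell in intermittent (median −1.14) and 9 in overlap hypoxia (median −1.51). Of all genes tested, 0.0481% were called in sustained hypoxia, 18.3% were called lower in intermittent and 2.89% lower in overlap hypoxia. The median of the markers was thus lower in intermittent than in sustained hypoxia, whereas Mrc1 fell less in intermittent (−0.58) than in sustained hypoxia (−0.81). The part of the Kupffer cell markers in the Mrc1 result was not tested.

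Fcgr2b is the inhibitory receptor for IgG, which on sinusoidal endothelium removes small immune complexes and is also made by B cells and macrophages. It stood at 14.0, 22.5, 15.3 and 10.7 CPM in sustained, 23.1, 24.98, 23.0 and 21.7 in intermittent and 8.60, 16.2, 12.8 and 8.39 in overlap hypoxia, against 24.0, 20.8, 18.3 and 17.6 CPM in room air. The overlap libraries lay below all room air libraries, and the other groups overlapped room air. Fcgr2b fell in overlap hypoxia by a log2 fold change of −0.82 (SE 0.21, edgeR adjusted p = 0.0301) and was not called in intermittent (0.20, interval −0.24 to 0.64) or sustained hypoxia (−0.37, interval −0.81 to 0.07). The overlap call was lost with the length and GC term and with the ribosomal covariate, −0.77 in each, and in 7 fits that left out a library, namely any 1 of the 4 room air libraries or overlap replicate 1, 3 or 4. B cell markers were near 0, with a summed level of 0.699 to 4.16 CPM over 8 genes in all 16 libraries and Pax5 at 0 counts in 8 of them. Of 5 other Fc receptor genes, 0 were called in sustained hypoxia, 4 fell in intermittent and 3 in overlap hypoxia. Beside these counts, 18.3% of all genes were called lower in intermittent and 2.89% in overlap hypoxia. Fcgr4, an activating receptor of myeloid cells, stood at −1.11 in intermittent and −1.71 in overlap hypoxia. Fcer1g, the signalling chain of the activating Fc gamma receptors and itself 1 of the 5, stood at −0.76 in intermittent and −1.25 in overlap hypoxia.

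Lyve1, a hyaluronan-binding receptor shared with lymphatic vessels, was the least precise member, with 11 to 177 counts per library. It stood at 0.725, 0.583, 0.479 and 2.54 CPM in sustained, 4.35, 0.498, 0.480 and 1.65 in intermittent and 0.234, 1.63, 3.67 and 1.70 in overlap hypoxia, against 2.12, 1.32, 1.87 and 1.97 CPM in room air. Single libraries within each exposed group lay far apart, and all groups overlapped. The 95% interval of the log2 change was −2.44 to 0.92 in sustained hypoxia, −1.69 to 1.62 in intermittent hypoxia and −1.80 to 1.59 in overlap hypoxia, so that changes of the size seen in Clec4g were not detectable for Lyve1.

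Gpr182, a receptor of the sinusoidal surface that scavenges chemokines, was not called in any comparison. It stood at 8.49, 12.4, 8.79 and 12.9 CPM in sustained, 11.6, 12.1, 10.7 and 12.7 in intermittent and 5.76, 11.1, 12.6 and 7.88 in overlap hypoxia, against 9.26, 11.3, 9.70 and 12.8 CPM in room air. The groups overlapped in every comparison. The change over room air was −0.01 (interval −0.44 to 0.41) in sustained hypoxia, 0.13 (−0.29 to 0.55) in intermittent hypoxia and −0.22 (−0.65 to 0.20) in overlap hypoxia.

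Oit3, a secreted protein with a zona pellucida domain whose function in liver is less well known, had 7.996, 12.2, 9.37 and 8.04 CPM in sustained, 14.9, 10.5, 10.3 and 13.1 in intermittent and 4.72, 10.5, 8.65 and 6.07 in overlap hypoxia, against 13.7, 13.7, 12.2 and 14.3 CPM in room air. Sustained and overlap libraries lay below all room air libraries, the highest sustained library by a small margin, and intermittent libraries overlapped room air. Oit3 fell in overlap hypoxia by −0.86 (SE 0.21, edgeR adjusted p = 0.0215) and was not called in sustained (−0.52, interval −0.95 to −0.09, edgeR adjusted p = 0.325) or intermittent hypoxia (−0.14, interval −0.57 to 0.28). Its overlap call was lost without room air replicate 3, room air replicate 4 or overlap replicate 1, and with the ribosomal covariate (−0.73).

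Among the secreted products, F8, the clotting cofactor factor VIII, which in the liver is made by sinusoidal endothelium, had 3.40, 3.27, 2.61 and 3.01 CPM in sustained, 3.86, 4.57, 6.42 and 6.25 in intermittent and 3.49, 2.97, 2.36 and 2.37 in overlap hypoxia, against 5.20, 4.73, 3.84 and 4.73 CPM in room air. All sustained and overlap libraries lay below all room air libraries, and the intermittent libraries overlapped room air and reached above it. F8 fell in overlap hypoxia by −0.71 (SE 0.20, edgeR adjusted p = 0.0435), close to the threshold, and stood at −0.59 in sustained (SE 0.20, edgeR adjusted p = 0.260) and 0.19 in intermittent hypoxia (interval −0.22 to 0.60). The overlap call was lost in 10 of 16 fits that left out a library (any room air library, sustained replicate 1, 2 or 4, or overlap replicate 1, 3 or 4) and in 4 alternatives, among them upper-quartile scaling.

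Dnase1l3, a secreted nuclease that digests DNA in microparticles and chromatin and is also made by dendritic cells, had 12.0, 16.5, 8.47 and 11.6 CPM in sustained, 13.4, 20.9, 20.4 and 18.2 in intermittent and 8.55, 14.8, 12.5 and 6.81 in overlap hypoxia, against 17.2, 16.6, 10.3 and 8.16 CPM in room air. The room air libraries spread over a wide range, and all groups overlapped it. The change over room air was −0.11 (interval −0.67 to 0.46) in sustained hypoxia, 0.47 (−0.10 to 1.04) in intermittent hypoxia and −0.31 (−0.88 to 0.27) in overlap hypoxia, none called.

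Compared with intermittent hypoxia, overlap hypoxia had less of most of these transcripts. All 10 fitted changes were below 0, with a median of −0.78 beside −0.00 for all genes, and 7 members were called lower, beside 6.15% of all genes called and 2.95% called lower. They were Stab1 (log2 −0.85), Stab2 (−0.95), Clec4g (−0.68), Oit3 (−0.72), Fcgr2b (−1.02), Mrc1 (−0.78) and F8 (−0.90), with edgeR adjusted p between 0.0162 for Stab1 and 0.0487 for Oit3. In 5 of them the 4 overlap libraries lay below the 4 intermittent ones (5.68% of all genes), the exceptions among the 7 being Oit3 and Mrc1. Dnase1l3 stood at −0.78 (edgeR adjusted p = 0.0931), Gpr182 at −0.35 and Lyve1 at −0.07. The count of member calls was 0 without overlap hypoxia replicate 4, with only the compared groups fitted and with the ribosomal covariate, and in these fits 16, 0 and 4 genes of the whole table were called, against 895. The folds moved less, with Stab1 at −0.81, −0.85 and −0.96 in the same fits and at −0.74 or lower in each of the 16 fits that left out a library. Without intermittent replicate 2 or 3 there were 4 calls each. With the length and GC term Stab1 stood at −0.52, Stab2 at −0.74, Clec4g at −0.89 and Mrc1 at −0.72, all called, while F8 stood at −0.49 and lost its call.

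Intermittent hypoxia compared with sustained hypoxia gave 4 members called higher and none lower, beside 38.4% of all genes called and 19.5% called higher. Stab1 stood at 0.97 (SE 0.17), Stab2 at 1.16 (SE 0.21), F8 at 0.78 (SE 0.20) and Fcgr2b at 0.57 (SE 0.21), with edgeR adjusted p = 0.000248, 0.000334, 0.00472 and 0.0389. For Stab1, Stab2 and F8 the groups did not overlap (17.7% of all genes). The median over the 10 members was 0.57 beside 0.03 for all genes. With the length and GC term F8 stood at −0.10, Stab1 at 0.35 and Fcgr2b at 0.58, none of them called, Stab2 at 0.72 kept its call and Oit3 at 0.58 gained one. The Fcgr2b call was lost in 8 of 16 fits that left out a library (any intermittent library, sustained replicate 1, 3 or 4, or room air replicate 2).

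Overlap hypoxia compared with sustained hypoxia gave 0 members called by edgeR, beside 0.165% of all genes. At an unadjusted p under 0.05 there were 3 of 10 members, beside 20.5% of all genes. DESeq2 and limma-voom called 2 each, Clec4g and Mrc1, beside 7.83% and 8.41% of genes that had an adjusted p. Clec4g stood at −0.89 (SE 0.18, edgeR adjusted p = 0.0517), with the overlap libraries wholly below the sustained ones (5.58% of all genes), and Mrc1 at −0.55 (SE 0.18, edgeR adjusted p = 0.0912). Stab1 and Stab2 were not called, at 0.12 (interval −0.23 to 0.48) and 0.21 (interval −0.23 to 0.65). Clec4g was called in 4 of 16 fits that left out a library, without room air replicate 1, room air replicate 4, intermittent replicate 2 or overlap replicate 2, and without the last of these Fcgr2b was called too.

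The departure from additivity is the log2 change of overlap hypoxia over room air minus the sum of the changes of both single exposures. Since oxygen levels are not given, each part of the combination need not be as strong as alone. No member was called by edgeR, DESeq2 or limma-voom, beside 0.454%, 5.38% and 1.87% of genes that had an adjusted p. At an unadjusted p under 0.05 there were 3 of 10 members, beside 17.5% of all genes. Stab2 stood at −0.82 (SE 0.30, edgeR adjusted p = 0.167), Stab1 at −0.69 (SE 0.24, edgeR adjusted p = 0.157) and Fcgr2b at −0.65 (SE 0.30, edgeR adjusted p = 0.265). These 3 departures were below 0 but were not called. Mrc1 lay at 0.03 (interval −0.48 to 0.54) and Clec4g at −0.21 (interval −0.75 to 0.32).

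The balance between members within a library differed between groups. The ratio of Clec4g to Stab1 was 3.36, 2.83, 2.86 and 2.23 in sustained, 1.11, 1.10, 1.12 and 1.58 in intermittent and 1.13, 1.92, 1.14 and 1.28 in overlap hypoxia, against 3.57, 3.40, 3.37 and 3.33 in room air. In sustained hypoxia 1 of 4 libraries lay inside the room air range and 3 below it, and the 8 libraries of the intermittent and overlap groups lay below all libraries of the other groups. The ratio of Mrc1 to Stab2 averaged 2.10 ± 0.564 in sustained hypoxia, 1.07 ± 0.229 in intermittent hypoxia and 1.19 ± 0.127 in overlap hypoxia, against 3.42 ± 1.01 in room air (SD, n = 4 each). A ratio within a library does not depend on library scaling, but it does depend on effects tied to transcript length, in which Clec4g (1442 bases) and Stab1 (7999 bases) lie far apart. With the length and GC offsets the changes over room air were −0.27 for Clec4g and 0.07 for Stab1 in intermittent hypoxia, closer together than the −0.67 and 0.81 without them. In overlap hypoxia they were −1.16 and −0.45 with the offsets, and −1.36 and −0.04 without. The intermittent and overlap groups had alike ratios at different levels, with Clec4g at a mean of 16.7 and Stab1 at 12.3 CPM in overlap hypoxia, and 26.7 and 21.9 CPM in intermittent hypoxia. These pairs were chosen after their values were seen and were not tested.

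**Figure D3:**
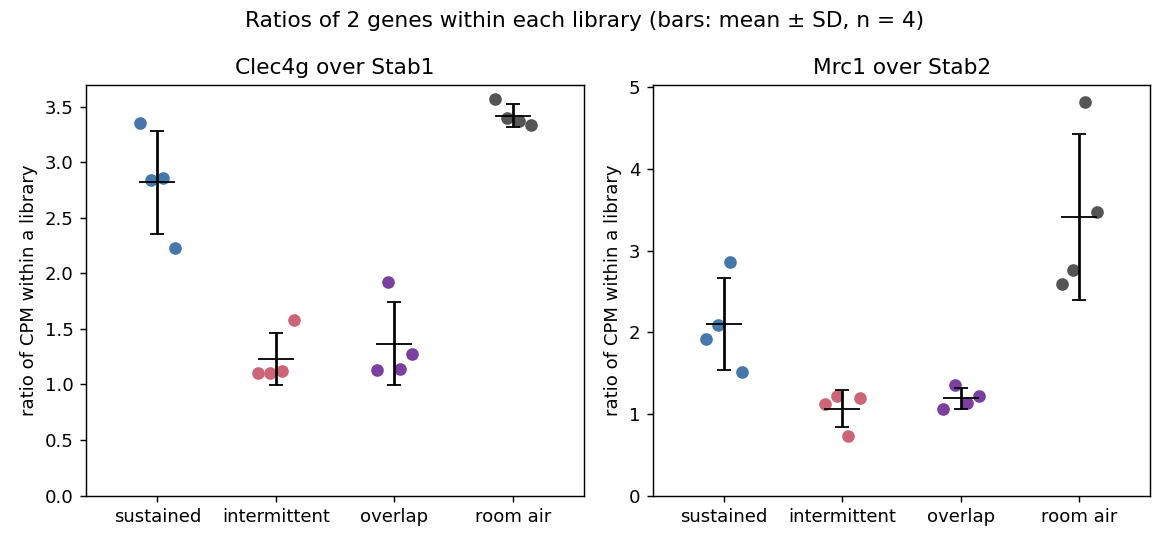
Ratio of Clec4g to Stab1 (left) and of Mrc1 to Stab2 (right), in CPM over CPM within each library, for sustained, intermittent and overlap hypoxia and room air. Points are libraries and bars the mean ± SD (n = 4). For Clec4g over Stab1 the intermittent and overlap points lie at or below 1.92 and the sustained and room air points at or above 2.23.

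Transcript length moved with the changes over all genes, and the members differ in length. The longest annotated transcript was 9784 bases for F8, 8228 for Stab2, 7999 for Stab1, 5374 for Mrc1, 4747 for Dnase1l3, 3954 for Gpr182, 3544 for Fcgr2b, 2893 for Lyve1, 2717 for Oit3 and 1442 for Clec4g. Genes with a longest transcript of 7 kb or more (1166 genes) had a median log2 change over room air of −0.15 in sustained hypoxia, 0.58 in intermittent hypoxia and 0.24 in overlap hypoxia, and genes under 2 kb (3800 genes) had 0.05 in sustained hypoxia, −0.25 in intermittent hypoxia and −0.13 in the overlap group. In intermittent hypoxia Stab1 at 0.81 and Stab2 at 1.03 lay between the quartiles of genes of their length class, which ran from 0.12 to 1.11. Clec4g at −0.67 also lay within that of its class, from −0.70 to 0.30, whereas Mrc1 at −0.58 lay below its class of 4 to 7 kb, from −0.19 to 0.78. In overlap hypoxia Clec4g at −1.36 lay below its class (−0.42 to 0.19) and F8 at −0.71 below its class (−0.03 to 0.52). Mrc1 at −1.37 and Dnase1l3 at −0.31 lay below their class (−0.13 to 0.44). Oit3 at −0.86 and Fcgr2b at −0.82 lay below their class of 2 to 4 kb (−0.25 to 0.33). Stab1 at −0.04 lay just under the lower quartile of its class, and Stab2, Gpr182 and Lyve1 lay within theirs.

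**Figure D4:**
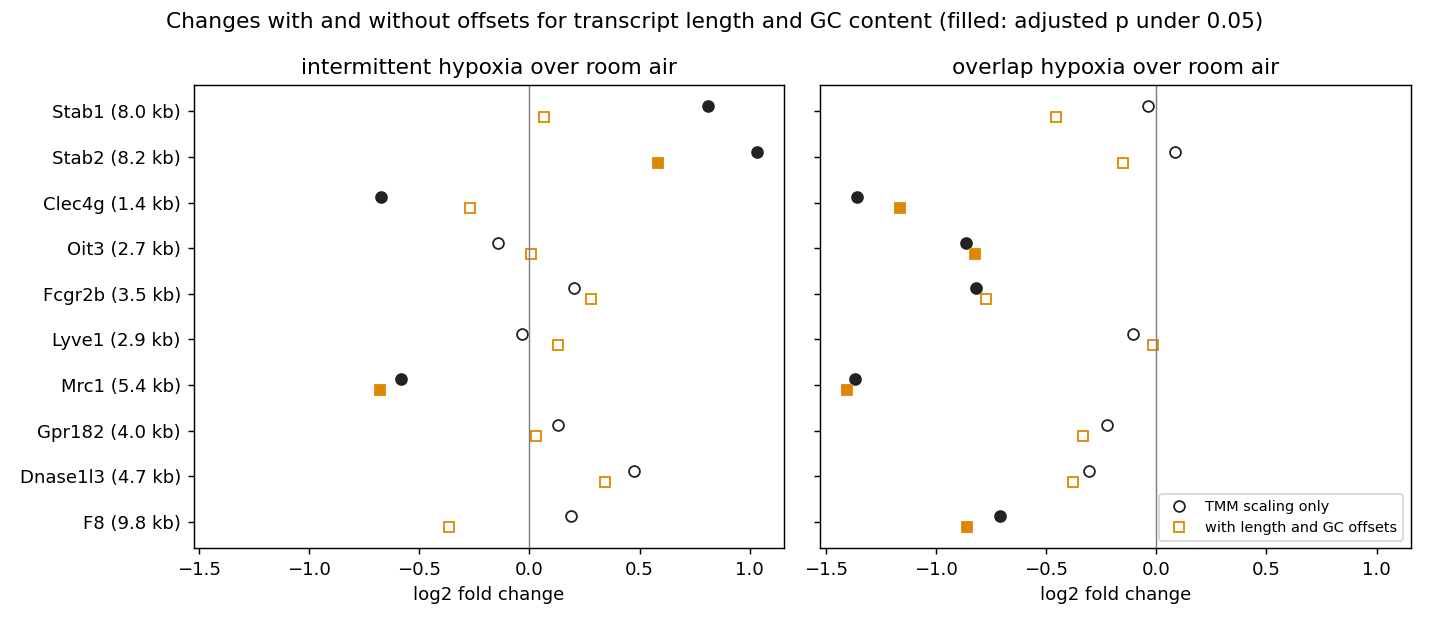
Log2 fold change of each gene in intermittent (left) and overlap hypoxia (right) over room air, with TMM scaling only (circles) and with offsets for transcript length and GC content (squares), and the longest transcript of each gene in kb beside its name. Filled symbols passed an adjusted p of 0.05. In intermittent hypoxia Stab1 moves to 0.07 with the offsets and Mrc1 moves from −0.58 to −0.68. In overlap hypoxia Clec4g and Mrc1 stay filled.

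Other endothelial genes were read beside the members. Of 14 genes of sinusoidal signalling and identity, 3 rose in intermittent hypoxia over room air (median log2 0.24), 1 fell in overlap hypoxia (median −0.59) and 0 were called in sustained hypoxia (median −0.35). Beside this and the following lists stand 18.9% of all genes called higher and 18.3% called lower in intermittent hypoxia, and 2.89% called lower in overlap hypoxia, so that 3 of 14 is near the share of genes in general. Those that rose were Ehd3, an endocytic recycling protein (1.12), Flt4, the receptor for VEGF-C (1.49), and Kit, the stem cell factor receptor (1.29), with edgeR adjusted p between 0.000815 and 0.0192. Bmp2, which sinusoidal endothelium releases to set hepcidin in hepatocytes, was the member that fell in overlap hypoxia, to 4.40 ± 1.54 CPM against 9.996 ± 0.929 CPM in room air (SD, n = 4 each, log2 −1.21, edgeR adjusted p = 0.00480). Bmp2 was named after its value was seen.

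Of 19 pan-endothelial genes, 7 rose in intermittent hypoxia (median log2 0.45), among them Robo4 (0.87), Eng (0.74) and Nos3 (1.32), and 1 fell in overlap hypoxia (median −0.34). That gene was Kdr, the main VEGF receptor, at 7.61 ± 2.20 against 13.5 ± 1.94 CPM in room air (log2 −0.85, edgeR adjusted p = 0.0151), likewise named after its value was seen. None of the 19 was called in sustained hypoxia (median −0.13). Their summed level was 92.0 to 131.4 CPM in sustained hypoxia, 137.4 to 159.4 in intermittent hypoxia and 65.4 to 119.4 in overlap hypoxia, against 103.8 to 133.0 CPM in room air. The intermittent libraries thus stood above all others in this sum, and none of the 19 genes was at 0 throughout a group. The part of this level in the members' results was not tested.

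Of 11 tested markers of other vessels, 4 rose in intermittent hypoxia (median 0.40) and 0 were called in sustained (median 0.14) or overlap hypoxia (median 0.17). Plvap, the diaphragm protein of fenestrated capillaries, stood at 0.91, Vwf, von Willebrand factor, at 1.32 and Sox17, an arterial transcription factor, at 2.10 (edgeR adjusted p between 0.00319 and 0.00472), though Sox17 averaged only 1.01 CPM in intermittent hypoxia and 0.229 CPM in room air. Of 5 tested lymphatic markers, Flt4 rose in intermittent hypoxia, and none was called in sustained or overlap hypoxia. In overlap compared with intermittent hypoxia, 6 of 14 sinusoidal signalling genes and 8 of 19 pan-endothelial genes were called lower and none higher. In that comparison 2.95% of all genes were called lower. These calls depended on the fit, with 895 genes of the whole table called in the main fit. The number was 16 without overlap replicate 4, 0 with only the compared groups fitted and 4 with the ribosomal covariate.

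**Figure D5:**
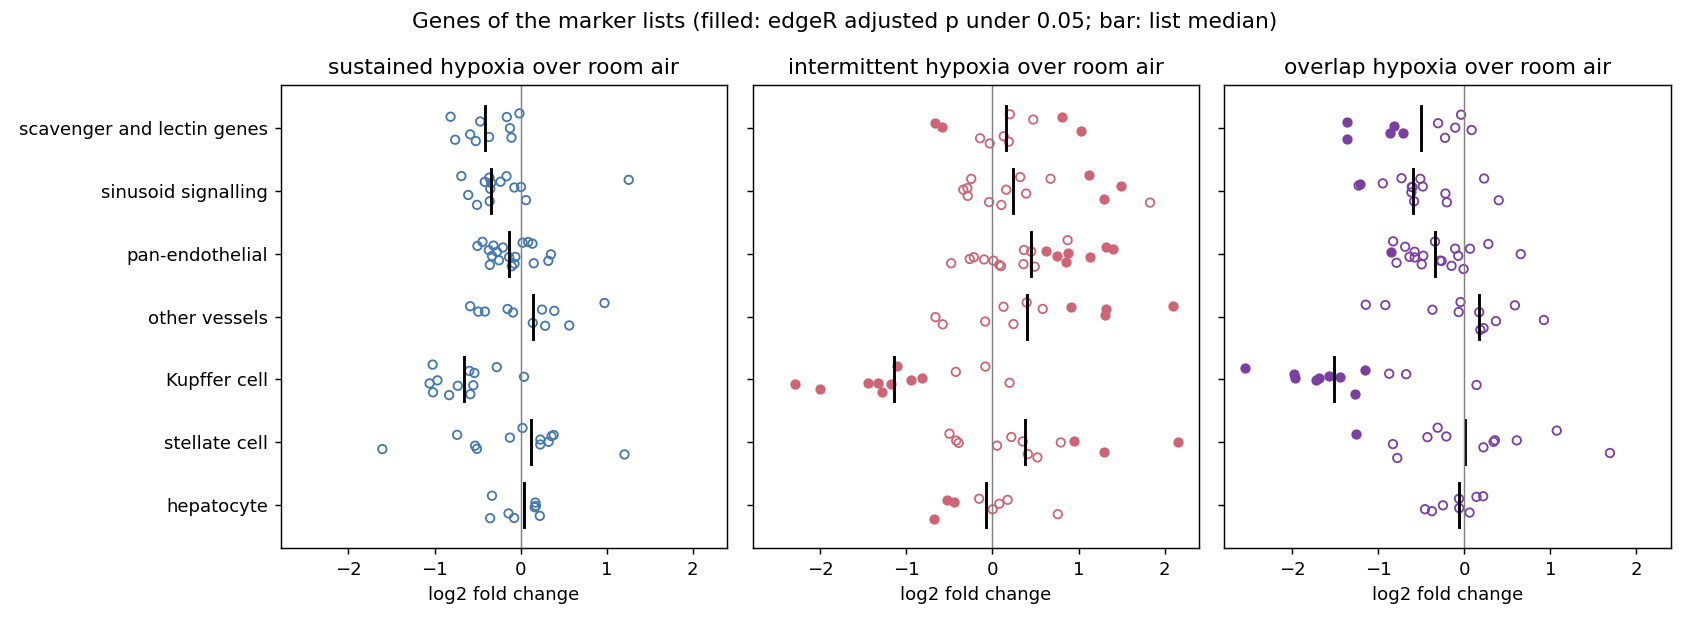
Log2 fold change over room air of the 10 scavenger and lectin genes and of marker lists for other endothelial genes, Kupffer cells, stellate cells and hepatocytes, in sustained, intermittent and overlap hypoxia. Each circle is a gene, filled where the edgeR adjusted p was under 0.05, and black bars are list medians. Kupffer cell markers have the lowest median in all 3 panels, at −0.66, −1.14 and −1.51.

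Partner genes of the members' tasks were counted as well. Of 14 tested scavenger receptors outside the list, 4 rose and 2 fell in intermittent hypoxia, with Scarf1, an endothelial receptor for modified lipoproteins, at 1.63 and the ferritin receptor gene Scara5 at −2.54. In overlap hypoxia 1 rose and 1 fell, and the one that fell was Msr1, the macrophage scavenger receptor (−0.89). Of all 14553 genes tested, 496 were called higher in overlap hypoxia over room air. Of 3 tested genes of hyaluronan turnover, Hyal1, the lysosomal hyaluronidase, rose in intermittent hypoxia (1.41, edgeR adjusted p = 0.000549), and Cd44, a hyaluronan receptor of leukocytes and other cells, fell in overlap hypoxia (−0.98, edgeR adjusted p = 0.0491). Of 15 other C-type lectins, 1 rose and 4 fell in intermittent hypoxia, with the asialoglycoprotein receptor genes of hepatocytes going apart, Asgr1 at −0.68 and Asgr2 at 0.42. In overlap hypoxia 1 rose (Asgr2, 0.44) and 1 fell (Clec12a, a myeloid receptor, −1.53). Msr1 was named after its value was seen.

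Of 8 genes that carry, stabilise or work with factor VIII, 2 rose and 4 fell in intermittent hypoxia and 0 were called in sustained or overlap hypoxia. Mcfd2, which with Lman1 carries factors V and VIII out of the endoplasmic reticulum, stood at −0.80, the clotting protease gene F10 at −0.54 and Vwf, the plasma carrier of factor VIII, at 1.32 (edgeR adjusted p between 0.000245 and 0.00472). Of 6 other nucleases, Dnase1l2 rose (2.88, to a mean of 1.39 CPM against 0.184 CPM in room air) and Dnase2a, the lysosomal nuclease, fell (−0.62) in intermittent hypoxia, and Dnase1l1 fell in overlap hypoxia (−1.13, edgeR adjusted p = 0.0490). Of 9 chemokine scavengers and chemokines, Cxcl13 fell in intermittent hypoxia (−2.97) and none was called in overlap hypoxia. Cxcl13 was low and scattered, at 1.88 ± 1.84 CPM in room air (SD, n = 4). Its means in sustained, intermittent and overlap hypoxia were alike, at 0.304, 0.226 and 0.236 CPM. In sustained hypoxia 0 members of every one of these lists were called.

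Among other cells of the sinusoid, stellate cell markers had 3 of 12 genes higher in intermittent hypoxia, near the 18.9% of all genes (Ecm1 0.95, Pdgfrb 1.29, Col1a1 2.16; median 0.38) and 1 lower in overlap hypoxia (median 0.01). Hepatocyte markers had 0 of 8 higher and 3 lower in intermittent hypoxia (Asgr1 −0.68, Cps1 −0.53, Apoa1 −0.45; median −0.08) and none called in overlap hypoxia (median −0.06). Ms4a1, a B cell antigen, fell in intermittent hypoxia (−2.28, edgeR adjusted p = 0.0172), with a mean of 0.0826 CPM against 0.448 CPM in room air, as the only one called of 4 tested B cell markers.

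Single libraries were counted by how often they were the extreme of their group. In overlap hypoxia, replicate 1 had the lowest level of 6 of the 10 genes, and replicates 2 and 3 had the highest level of 4 and 5. In sustained hypoxia replicate 2 was highest for 5 genes and replicate 1 lowest for 5, and in room air replicate 3 was lowest for 5. Over all 16 libraries, the genes most like the mean of the members' standardised log2 levels, among 9436 genes averaging 2 CPM or more, were Epb41l2 (Pearson r 0.93, Spearman rho 0.91), Kdr (0.92 and 0.90), Bmp2 (0.89 and 0.78), Gimap6 (0.88 and 0.87) and Cdh5 (0.87 and 0.85). These correlations are descriptions over libraries that share their group differences, library scaling and total depth.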

How the data were processed

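Total RNA of 16 liver libraries was sequenced from TruSeq libraries, per the labels' protocols. The authors deposited expected counts per gene, with Bowtie 1.3.0, RSEM and GRCm38 named in the submitters' processing notes. Not given in the sources used here were annotation release, read length and strand setting. Of the nonzero deposited expected counts, 49.3% were not whole (tolerance 1e-06), so reads that map to several genes were shared out by estimation. All columns belonged to these samples. Symbols and lengths came from GENCODE M21 by Ensembl identifier for 55141 of 55487 genes, and the other 346 held at most 0.0424% of a library.

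Counts were rounded, filtered with filterByExpr (14553 genes left) and scaled by TMM in edgeR 4.0.16 (R 4.3.3). A robust quasi-likelihood model with group as factor took all libraries together for 7 comparisons, with Benjamini-Hochberg adjustment over all genes and calls at 0.05. The SE was taken from the fold change and its F statistic. The fitting script was tested on simulated data. Alternatives were RLE size factors, upper-quartile scaling, no filter, DESeq2 1.42.0, limma-voom (limma 3.58.1), the compared groups alone, replicate number as a block, the ribosomal RNA share as covariate, offsets for length and GC content (mgcv 1.9.3) and leaving out each library, plus, chosen after seeing the data, leaving out ribosomal and mitochondrial RNA genes. Limma-voom was run with a quality weight for each library. Depth lay between 10940275 and 64789635 counts, and without molecular identifiers intervals cover counting and library spread only. No pair of libraries in a group was a duplicate (24 pairs, chi-square per degree of freedom 58.0 to 440.4).

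The 10 members and the 16 other gene lists were chosen with earlier results of these data known. Named genes were all members, up to 3 genes per list with the lowest p in intermittent hypoxia over room air, and the 5 genes most like the members' mean. A gene that met this rule is not reported here. The AGGAA motif and the pairs in the ratios were chosen after values were seen.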

Additional observations from a re-analysis of the deposited data

Results flagged for a closer look

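Among 40 sets of 4 libraries (10 genes in 4 groups), 2 held a library far from the other 3 by the 95% critical value of Dixon's gap over range, where chance alone gives about 1 in 20 such sets. Clec4g was lowest in room air replicate 3, at 36.4 CPM, a gap of 0.840 of the range, and the other room air libraries lay between 44.0 and 45.4 CPM. Lyve1 was highest in sustained hypoxia replicate 4, at 2.54 CPM, a gap of 0.881 of the range, and the other sustained libraries lay between 0.479 and 0.725 CPM. Without room air replicate 3, both Clec4g calls against room air were kept.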

How the results depend on the processing

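Of 1810 values recomputed under an alternative, 1696 kept their side of the threshold, 49 of these with a sign turned among uncalled changes, 88 lost a call, 25 gained one and 1 called change turned its sign (F8 in intermittent over sustained hypoxia, −0.10 with the length and GC offsets). The count of 4 members called in intermittent hypoxia over room air was 0 with the ribosomal covariate and 2 with the offsets, and stayed at 4 in every fit that left out a library. In sustained hypoxia the count of 0 was 1 without the filter, with DESeq2, with limma-voom and with only the compared groups fitted, and 0 to 1 over fits that left out a library. In overlap hypoxia the count of 5 was 2 with the ribosomal covariate and 2 to 5 over fits that left out a library. In overlap over sustained hypoxia the count of 0 was 1 with RLE size factors, upper-quartile scaling, no filter, the replicate block and without ribosomal and mitochondrial RNA genes, 2 with DESeq2 and limma-voom, and 0 to 2 over fits that left out a library. In overlap over intermittent hypoxia the count of 7 was 0 with only the compared groups and with the ribosomal covariate, and 0 to 7 over fits that left out a library. In intermittent over sustained hypoxia the count of 4 was 0 with the ribosomal covariate and 2 with the offsets, and 3 to 5 over fits that left out a library. The departure stayed at 0 in every fit run (0 to 0), and fitting only the compared groups was not run for it. The cause of these moves was not tested.

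Counts over all genes moved too. With the ribosomal covariate they were 77 (against 5404) in intermittent, 4 (against 7) in sustained and 361 (against 916) in overlap hypoxia over room air, 4 (against 895) in overlap over intermittent and 1 (against 5584) in intermittent over sustained hypoxia. DESeq2 called 175 genes in sustained hypoxia, 1466 in overlap hypoxia, 1584 in overlap over intermittent hypoxia, 896 (against 24) in overlap over sustained hypoxia and 540 (against 66) for the departure. Limma-voom called 248, 1374, 494, 1224 and 272. Over fits that left out a library, the counts ran from 4292 to 5635 in intermittent, 2 to 57 in sustained and 174 to 1186 in overlap hypoxia over room air, 16 (without overlap replicate 4) to 1406 (without intermittent replicate 4) in overlap over intermittent hypoxia, 0 to 1547 (without overlap replicate 2) in overlap over sustained hypoxia, 4608 to 5858 in intermittent over sustained hypoxia and 2 to 241 (without overlap replicate 2) for the departure. With upper-quartile scaling 576 of 885 calls in overlap hypoxia were higher, where TMM gave 496 of 916, and 312 of 769 in overlap over intermittent hypoxia, where TMM gave 466 of 895.

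Libraries of the same number deviated together in 4 of 24 pairs only (correlation over 0.1, range −0.103 to 0.183), so the numbers were not read as pairs. With the replicate block, Clec4g in overlap over sustained hypoxia (−0.90) and Dnase1l3 in overlap over intermittent (−0.83) and intermittent over sustained hypoxia (0.61) gained a call, and no member lost one. Counts of 11 to 177 limit Lyve1, and 27 counts of F8 in its shallowest library limit F8.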
